A study of Homo sapiens with 3 samples.

Results

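Peaks in annotated pseudogenes were collected from 2 GoldCLIP-seq peak lists of the human colorectal carcinoma line HCT116, an established cell line. A peak was a member when the shortest gene holding its summit, in the RefSeq gene table of GRCh38, was a pseudogene of any type. This rule gave 2490 of 154000 peaks in the list of the RPL22-HaloTag library, or 1.62% (1.55 to 1.68). In the list of the RPL22L1-HaloTag library it gave 3393 of 254413 peaks, or 1.33% (1.29 to 1.38). The intervals given with shares are exact binomial 95% intervals (Clopper-Pearson) for counting error alone. A further 210 and 261 peaks had a summit inside a pseudogene but lay in a shorter gene within it, and these were not members.

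The series held 3 HCT116 samples with 1 library each. The cells of one library expressed the HaloTag alone, those of another RPL22 fused to the HaloTag, and those of the remaining one RPL22L1 fused to it. The library with the HaloTag alone was not analysed here. GoldCLIP couples the tagged protein covalently to beads through the HaloTag, and the RNA crosslinked to it is washed under denaturing conditions and recovered without a gel. No strand was given for the peaks, and the number of reads behind each list is unknown. With 1 library per protein there was no test between them, and each difference given here is a difference between libraries. Of 10 markers of colon epithelium, 9 had a summit in the RPL22-HaloTag list and 8 in the RPL22L1-HaloTag list. Of 4 blood markers, 1 had a summit in each list, and of 4 fibroblast and endothelial markers 2 and 3 did.

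A pseudogene is a copy of a gene that has lost its original coding or structural function. Processed pseudogenes arose when an mRNA was reverse transcribed and inserted into the genome, and highly expressed genes such as those for ribosomal proteins left many of them. Short RNAs made by RNA polymerase III or the snRNA machinery, such as the spliceosomal U RNAs, 7SK RNA, 7SL RNA, the Y RNAs and 5S ribosomal RNA, left large families of copies as well. Many pseudogenes lie inside introns of other genes, and some are transcribed from promoters of their own. RPL22 binds RNA and sits in the large subunit of the ribosome, and RPL22L1 is a paralog of it. Copies resemble their parents and each other, and how reads that match several places were handled is not given in the sources used here. A summit in a pseudogene therefore cannot be told apart from a summit that belongs to a related copy or, without strand, to an intron of the gene around it.

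Of 17051 annotated pseudogenes, 1613 (9.46%, 9.02 to 9.91) held an RPL22 summit and 1875 (11%, 10.5 to 11.5) an RPL22L1 summit. Over annotated genes of any type, 33.9% and 35.7% had one. The RPL22L1 list is longer. When it was reduced by score to 154000 peaks, the length of the RPL22 list, the order turned. The pseudogenes with a summit then numbered 1613 for RPL22 and 1381 for RPL22L1. In the full lists 740 pseudogenes held a summit of both, which is 45.9% of the RPL22 set and 39.5% of the RPL22L1 set. The same share was not taken over all genes. This number and the numbers of copies in both lists given below are therefore a description, and cannot be called high or low. Per megabase of pseudogene there were 47.2 and 64.3 summits, against 82.8 and 138 per megabase over all genes. The score, a value the authors assigned to each peak, serves only to rank peaks within a list. Its median in pseudogenes was 33 and 132, beside 33 and 124 over all peaks. Most peaks were exactly 30 bases wide and had a summit offset of 15, a form called flat here. Flat peaks made up 1673 of the pseudogene peaks (67.2%) for RPL22 and 2579 (76.0%) for RPL22L1, near the 64.9% and 77.9% of all peaks. All other peaks are called shaped.

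The pseudogene peaks fell into 4 families by symbol. Pseudogenes of snRNA (RNU and RNVU symbols) held 108 RPL22 and 183 RPL22L1 peaks. Those of large-subunit ribosomal proteins (RPL) held 118 and 166, and those of small-subunit proteins (RPS) held 89 and 104. All other pseudogenes held 2175 and 2940. In the snRNA family 33 of 108 peaks and 44 of 183 peaks were flat, or 30.6% and 24.0%, the lowest of the 4 families. Its density was 535 and 907 summits per megabase, against 116 and 163 in the RPL family and 160 and 187 in the RPS family. Some small RNA copies counted among all other pseudogenes were alike. Flat shares were 11.1% and 8% for Y RNA, 20.4% and 28% for 5S and 22.9% and 37.8% for 7SK copies. Their densities were 1230 and 3416, 742 and 378, and 830 and 439. Copies of 7SL RNA had 61.1% and 71.4% flat peaks and densities of 90.5 and 70.4.

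U5 RNA, the core snRNA that aligns the exons in the spliceosome, gave the highest-scoring pseudogene peaks of both lists. In RNU5E-6P the RPL22 peak had a score of 269397 and rank 11 of its list. The RPL22L1 peak there had a score of 947384 and rank 9, and both summits fell on the same base. RNU5E-4P followed with a score of 96802 at rank 32 and a score of 494854 at rank 19. RNU5A-8P within HHAT had a score of 67970 at rank 75 in the RPL22L1 list, and the nearest RPL22 peak was 25102 bases away. Of 29 U5 pseudogenes, 9 had an RPL22 summit and 10 an RPL22L1 summit, 7 of them in both lists. The functional U5 genes scored higher, with maxima of 501266 in RNU5E-1 at rank 6 and 1852929 in RNU5A-1 at rank 6 of their lists.

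U1 RNA pairs with the 5′ splice site and U2 RNA with the branch point. U1 pseudogenes with a summit numbered 21 of 123 (17.1%, 10.9 to 24.9) for RPL22 and 32 (26.0%, 18.5 to 34.7) for RPL22L1, and 18 had one in both lists. The leading copy was RNU1-88P at chr6:36639619-36639673, with a score of 26838 at rank 86 and, in the RPL22L1 list, 51281 at rank 95. RNU1-7P had scores of 19928 and 11607, and RNU1-148P scores of 7970 and 3161. U2 pseudogenes with a summit numbered 12 of 68 (17.6%, 9.47 to 28.8) and 23 (33.8%, 22.8 to 46.3), with 10 in both. RNU2-22P scored 2129 and 2256 and RNU2-36P 1868 and 2333. RNU2-4P, with a score of 4964 in the RPL22L1 list, had no overlapping RPL22 peak. U6 RNA, which forms the catalytic centre with U2, has 1278 annotated pseudogenes, of which 50 (3.91%) and 85 (6.65%) had a summit and 19 had one in both lists. RNU6-31P led these with scores of 5676 and 16144.

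U4 RNA holds U6 inactive until the spliceosome is activated, and its copies showed a wide gap between the lists. An RPL22 summit lay in 2 of 89 U4 pseudogenes (2.25%, 0.273 to 7.88), and an RPL22L1 summit in 18 (20.2%, 12.4 to 30.1). The RPL22 peaks had a score of 141 in RNU4-42P, at 8.12% of the list by rank, and of 58 in RNU4-75P, at 24.8%. The RPL22L1 peaks reached 22164 in RNU4-46P at rank 146, 4678 in RNU4-52P, 3506 in RNU4-58P, 2876 in RNU4-67P and 2420 in RNU4-66P. Of the 19 RPL22L1 peaks, 7 lay in the top 1% of the list, and 1, in RNU4-42P, overlapped an RPL22 peak. The nearest RPL22 peak was 5541 bases from the RNU4-46P peak and 155169 bases from the one in RNU4-67P. Others were closer, at 62 and 154 bases from the peaks in RNU4-5P and 796 bases from the one in RNU4-32P. When the RPL22L1 list was reduced by score to 154000 peaks, the length of the RPL22 list, 18 peaks in U4 pseudogenes remained. Neither list had a summit in the 2 functional U4 genes.

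7SK RNA sequesters the elongation factor P-TEFb, and its copies were hit more often in the RPL22 list. Of 293 7SK pseudogenes, 61 (20.8%, 16.3 to 25.9) had an RPL22 summit and 33 (11.3%, 7.88 to 15.5) an RPL22L1 summit, 23 of them in both. The peaks numbered 70 and 37, of which 54 and 23 were shaped. With lists of equal size they numbered 70 and 29. RN7SKP55 led the RPL22 list with a score of 4209 at rank 284, and its RPL22L1 peak scored 1736 at rank 835. RN7SKP214 scored 1761 and 2135, RN7SKP185 1746 and 1455, and RN7SKP104 795 and 3978. RN7SKP108 and RN7SKP10, with RPL22 scores of 1671 and 1651, had no RPL22L1 peak within 43066 and 78318 bases. The functional gene went the other way, since RN7SK held no RPL22 peak while its RPL22L1 peak scored 2698026 at rank 5 of the list.

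Copies of 5S ribosomal RNA, the small RNA of the large ribosomal subunit, were grouped after their values were seen. Of 510 such pseudogenes, 47 (9.22%, 6.85 to 12.1) had an RPL22 summit and 25 (4.90%, 3.20 to 7.15) an RPL22L1 summit, 17 of them in both. The RPL22 peaks numbered 49, of which 9 lay in the top 1% of the list, and the RPL22L1 peaks numbered 25, of which none did. With equal lists there were 49 and 17. RNA5SP473 had the highest RPL22 score, 1203, with no RPL22L1 peak within 9043 bases. RNA5SP358 scored 1164 at rank 608 and, in the RPL22L1 list, 840 at rank 3118. The copies of 5.8S ribosomal RNA include RNA5-8SP3 on chromosome 9, whose RPL22 peak had a score of 13050 at rank 134. The nearest RPL22L1 peak was 276 bases away from it. RNA5-8SP5 scored 2038 in the RPL22 list alone, and RNA5-8SP4 had overlapping peaks of 363 and 705. Of the 17 functional 5S genes, RNA5S9 alone held a summit, with scores of 1117 and 2698.

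Y RNAs, which bind the protein Ro60, had copies in the opposite order. Of 75 Y RNA pseudogenes, 9 (12%, 5.64 to 21.6) had an RPL22 summit and 25 (33.3%, 22.9 to 45.2) an RPL22L1 summit, and 8 were in both lists. The copies of Y1 RNA numbered 1 and 8 of 16, those of Y3 RNA 2 and 4 of 16, those of Y4 RNA 5 and 12 of 33, and those of Y5 RNA 1 and 1 of 10. RNY1P13 had an RPL22L1 score of 64854 at rank 79, with the nearest RPL22 peak 7337 bases away. RNY3P16 scored 3278 and 2582, RNY3P2 1580 and 2954, and RNY4P11 1840 and 3509. Among the 4 functional Y RNA genes 2 had an RPL22L1 summit and none an RPL22 summit, with a best score of 413209 in RNY1. Equal lists held 9 and 17 peaks in these copies. By contrast, 7SL RNA, the RNA of the signal recognition particle, has 684 annotated copies, of which 18 (2.63%) and 14 (2.05%) had a summit.

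**Figure D1:**
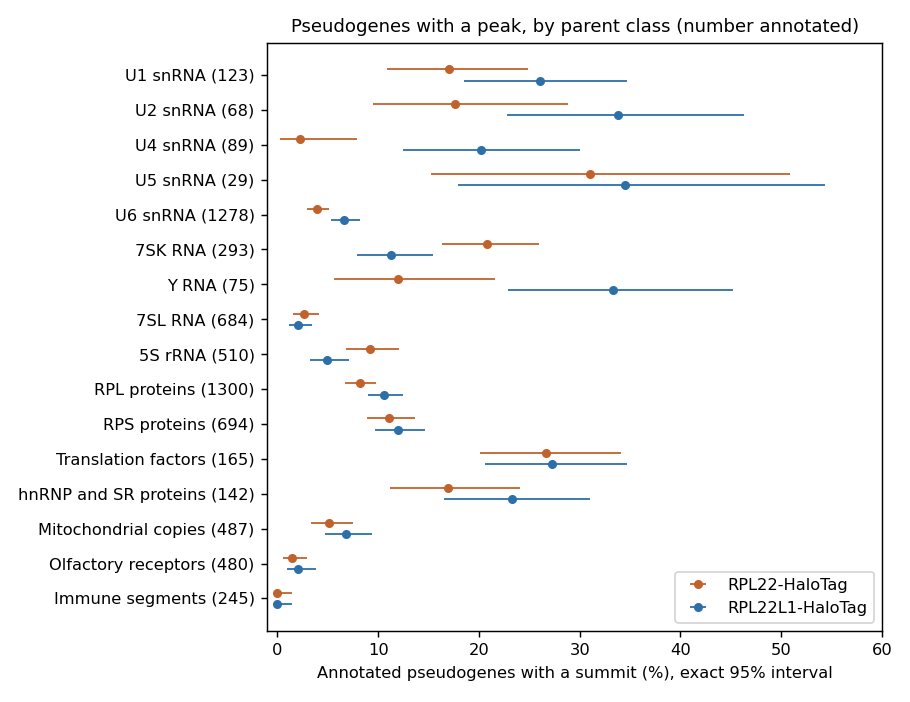
Share of the annotated pseudogenes of a parent class that held at least 1 summit (x axis, percent) in the RPL22-HaloTag list (orange) and the RPL22L1-HaloTag list (blue), with exact 95% intervals for counting error; the number annotated is in parentheses. U4 copies stood at 2.25% and 20.2%, 7SK copies at 20.8% and 11.3%, Y RNA copies at 12% and 33.3%, and immune segments at 0 of 245 in both lists.

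Where the summits fell within these copies differed by type. The distance to the nearer end of the gene was taken, because the gene table gives no strand and the 5′ and 3′ ends cannot be told apart. In U4 copies the 15 shaped RPL22L1 summits lay a median of 14 bases from an end, in genes with a median length of 141 bases, and 11 of them were within 20 bases. U5 copies had medians of 17 and 14 bases in genes of 109 and 108 bases. Y RNA copies had medians of 15 bases over 8 summits and 21 bases over 23, in genes of 93.5 and 95 bases. Summits in U6 copies lay towards the middle, at medians of 35.5 and 44 bases in genes of 106 bases, and those in U2 copies at 58.5 and 67 bases in genes of 187.5 and 188 bases. U1 copies had medians of 25 and 27 bases in genes of 161 and 162 bases. In 5S copies the medians were 35 and 27 bases in genes of 115 and 113 bases, and in 7SK copies 76 and 64 bases in genes of 265 and 299 bases. For each type hit in both lists by 8 or more shaped peaks, the 2 medians differed by 12 bases or fewer. The length of the gene bounds this distance, and copies hit in both lists count in both medians. Similar medians therefore do not test whether the 2 lists share a position.

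**Figure D2:**
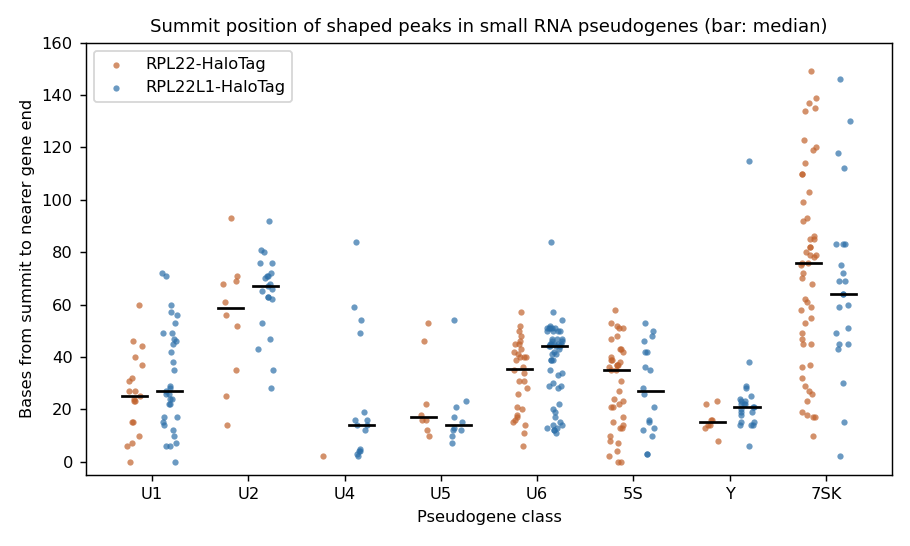
Distance in bases from the summit to the nearer end of the pseudogene (y axis) for shaped peaks in 8 classes of small RNA copies (x axis), 1 point per peak, with the median as a bar where there are 3 or more peaks; 2 RPL22 summits in RN7SKP23, at 1165 and 1628 bases, lie above the axis. In the RPL22L1 list the median is 14 bases for U4 copies, in genes of median length 141 bases, and 67 bases for U2 copies, in genes of 188 bases.

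Pseudogenes of ribosomal proteins carried mostly flat peaks with lower scores than snRNA copies. Median scores were 33 and 132 in the RPL family and 33 and 127.5 in the RPS family. They were 131.5 and 303 in snRNA copies and 33 and 124 over all peaks. In the RPL family 106 of 1300 pseudogenes (8.15%, 6.72 to 9.78) had an RPL22 summit and 138 (10.6%, 8.99 to 12.4) an RPL22L1 summit, with 28 in both. Flat peaks were 94 of 118 (79.7%) and 134 of 166 (80.7%), beside 64.9% and 77.9% of all peaks. In the RPS family the flat shares were 68.5% and 77.9%. The highest RPL22 scores were 391 in RPL27AP6, 316 in RPL32P11 and 167 in RPL18AP10. The highest RPL22L1 scores were 1324 in RPL38P2, 1226 in RPL32P18 and 1060 in RPL5P11. None of the RPL peaks reached the top 1% among RPL22 peaks, and 3 did among RPL22L1 peaks. The order of the peak counts turned when the RPL22L1 list was cut by score to equal size, with 118 RPL22 and 105 RPL22L1 peaks in the RPL family. As a share of its full list, the family was already larger for RPL22, with 0.0766% against 0.0652%.

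The RPS family was similar, with 77 of 694 pseudogenes (11.1%, 8.86 to 13.7) hit for RPL22, 83 (12%, 9.64 to 14.6) for RPL22L1 and 28 for both. Equal lists held 89 and 65 RPS peaks. RPS4XP22 at chr19:9683562-9683612 stood above the rest of both ribosomal families, with a score of 1878 at rank 429 and an RPL22L1 score of 5374 at rank 355, and summits 4 bases apart. Its parent RPS4X had best scores of 517 and 1274, lower than the copy in both lists. RPS23P8 had overlapping peaks of 451 and 605. RPSAP52 reached 336 in the RPL22 list, RPS27P3 1573 and RPS7P1 674 in the RPL22L1 list. RPSA, the parent of RPSAP52, had 1 peak in each list with scores of 31096 and 47410.

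All 1994 ribosomal protein pseudogenes could be assigned by symbol to 79 parent genes. In the RPL22 list 62 parents had at least 1 pseudogene with a summit, and 48 of these parents had a summit themselves. Of the 17 parents without a hit pseudogene, 15 had one. The RPL22L1 list gave 62 of 68 and 10 of 11. RPS3A led with 11 and 13 of its 54 pseudogenes hit, yet the RPS3A gene had no RPL22 summit and 2 RPL22L1 summits. RPL23A had 10 and 10 of 95, and RPL21 6 and 10 of 137. RPS2 had 7 and 4 pseudogenes hit, RPL7A 7 and 2, and RPS4X 7 and 2. Across the 79 parents the number of hit pseudogenes rose with the number annotated, with Spearman's rho of 0.62 and 0.72. This is a description across genes within 1 library each, and parents with more copies also offer more sequence. RPL22 itself has 22 annotated pseudogenes. RPL22P12 held 1 flat peak in each list, with scores of 21 and 168, and RPL22P13 held 1 RPL22L1 peak with a score of 34. The other 20 held none.

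Among other parents, pseudogenes of translation factors (EEF and EIF symbols) were hit most often of the protein classes formed by symbol, with 44 of 165 (26.7%, 20.1 to 34.1) and 45 (27.3%, 20.6 to 34.7). Their median length was 1344 bases, against 716 for all pseudogenes, and per megabase they did not lead. They held 154 and 181 summits per megabase. Copies of glycolytic enzymes held 205 in the RPL22 list, and copies of hnRNP and SR proteins 211 in the RPL22L1 list. EEF1A1, the factor that brings aminoacyl-tRNA to the ribosome, accounted for 19 and 13 of its 50 copies. The parent gene EEF1A1 held 1 RPL22 summit, with a score of 86, and 12 RPL22L1 summits, with a best score of 1316. HNRNPA1, an hnRNP that binds pre-mRNA, had 18 and 19 of 75 copies hit. Its own gene held no RPL22 summit and 10 RPL22L1 summits. NPM1, a nucleolar protein, had 9 and 11 of 50 copies hit, and its gene held 32 RPL22L1 summits and no RPL22 summit. Olfactory receptor pseudogenes were hit in 7 (1.46%) and 10 (2.08%) of 480 cases. Immune gene segments had none of 245 in both lists, which allows a share of up to 1.22% when 3 counts are taken as the limit, and 1.49% as the upper end of the exact interval.

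Nuclear copies of mitochondrial genes were hit in 25 (5.13%) and 33 (6.78%) of 487 cases. MTRNR2L8, a copy of the mitochondrial large ribosomal RNA gene, held an overlapping pair at chr11:10508022-10508053 with scores of 5282 and 12756 and summits on the same base. MTRNR2L12 scored 6282 in the RPL22 list and 1255 in an overlapping RPL22L1 peak. The mitochondrial gene itself (RNR2) had best scores of 103464 and 21410. Of the longer pseudogenes, PDE4DIPP7 held a peak of 16019 at rank 115 that overlapped an RPL22L1 peak of 7865 at rank 280. PDE4DIPP4 followed with 1364 and 7348 and PLEKHA8P1 with 1701 and 4337. The parents were lower, with best scores of 134 and 385 in PDE4DIP and of 45 and 560 in PLEKHA8. TSTD3 had an RPL22L1 score of 6464 at rank 311, and the nearest RPL22 peak was 15041 bases away. LOC124901556 and LOC124902355, with RPL22 scores of 10453 and 8214, and LOC124906192, with an RPL22L1 score of 58757, had no overlapping peak in the other list.

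Overlap between the lists, meaning at least 1 shared base, was found for 384 of 2490 RPL22 pseudogene peaks (15.4%, 14.0 to 16.9), beside 17.4% of all RPL22 peaks. For the RPL22L1 list it was 387 of 3393 (11.4%, 10.4 to 12.5), beside 10.6% of all its peaks. The RPL22 interval lay below the share of all peaks, and the RPL22L1 interval held it. Without the snRNA, 7SK, 7SL and Y RNA copies the shares were 12.9% and 9.54%. With lists of equal size the order turned, and 12.7% of RPL22 and 14.5% of RPL22L1 pseudogene peaks overlapped. That cut drops the lowest-scoring RPL22L1 peaks, so length and score cannot be told apart here. The shares over all peaks were not taken at equal size, so whether this turn is particular to pseudogene peaks is not known. The shares of all pseudogene peaks in the full lists were above those of lncRNA peaks, 10.8% and 6.96%, and of peaks outside genes, 7.04% and 4.79%. In protein-coding genes 19.3% and 11.5% of peaks overlapped. Among shaped pseudogene peaks 284 of 817 (34.8%) and 229 of 814 (28.1%) overlapped a peak of the other list, beside 39.2% and 26.0% of all shaped peaks.

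The families differed in this overlap. The snRNA copies shared 58 of 108 RPL22 peaks (53.7%, 43.8 to 63.4) and 58 of 183 RPL22L1 peaks (31.7%, 25 to 39.0). By type, U1 copies shared 18 of 23 and 18 of 35, U2 copies 10 of 12 and 10 of 23, U5 copies 7 of 9 and 7 of 10, U6 copies 18 of 51 and 18 of 86, and U4 copies 1 of 2 and 1 of 19. Copies of 7SK RNA shared 20 of 70 RPL22 peaks (28.6%) and 19 of 37 RPL22L1 peaks (51.4%). For 5S copies the numbers were 17 of 49 (34.7%) and 16 of 25 (64.0%), and for Y RNA copies 8 of 9 (88.9%) and 8 of 25 (32.0%). The RPL family shared 12 of 118 (10.2%) and 13 of 166 (7.83%), and the RPS family 12 of 89 (13.5%) and 12 of 104 (11.5%). High scores go with overlap in both lists, and snRNA copies had many high scores. Of shaped snRNA peaks scoring 1000 or more, 15 of 16 RPL22 peaks (93.8%) and 21 of 37 RPL22L1 peaks (56.8%) overlapped, beside 84.9% and 61.4% of all shaped peaks with such scores.

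**Figure D3:**
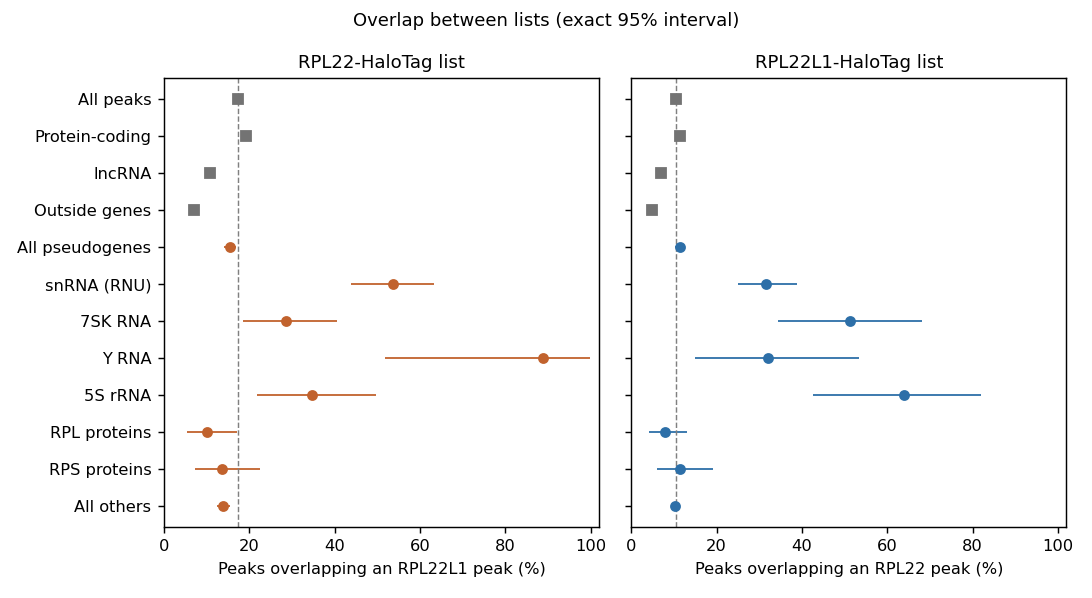
Share of peaks that overlap a peak of the other list by at least 1 base (x axis, percent), by class, with exact 95% intervals for counting error; grey squares are classes of all peaks, coloured circles are pseudogene peaks, and the dashed line is the share over all peaks. Pseudogene peaks as a whole lie at 15.4% and 11.4%, where the lines are at 17.4% and 10.6%, and snRNA copies lie above it at 53.7% and 31.7%.

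Shaped peaks of both lists met in 203 overlapping pairs in 191 pseudogenes. Their summits were a median of 3 bases apart, and 126 pairs (62.1%) were within 5 bases. Over all 13449 shaped pairs of the lists the median was 11 bases and 32.9% were within 5. In snRNA copies the median was 1 base, and 38 of 44 pairs (86.4%) were within 5 bases. All 7 pairs in Y RNA copies and 10 of 16 pairs in 7SK copies were within 5 bases, as were 82 of 151 pairs (54.3%) outside the RNU, RPL and RPS families. The snRNA pairs had median positions at 0.908% (RPL22) and 1.03% (RPL22L1) of the list length, and single pairs lay far apart, such as RNU1-39P at 5.65% and 81.1%. The 7SK pairs stood at 0.596% and 5.78%, the 5S pairs at 4.06% and 16.6%, and the Y RNA pairs at 1.03% and 0.416%. Lists of different length set these positions, so they are given as positions within each list.

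**Figure D4:**
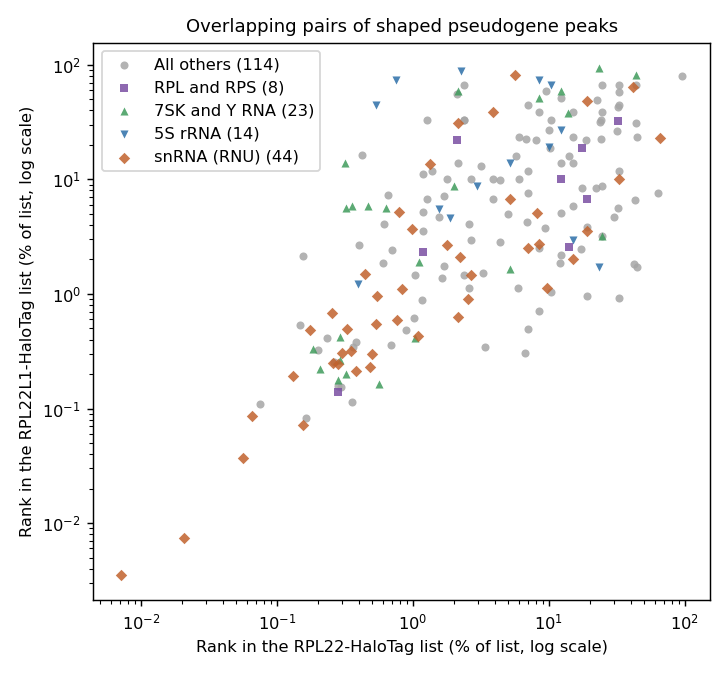
Rank of each overlapping pair of shaped pseudogene peaks as a percent of its list (log scales; RPL22-HaloTag on the x axis, RPL22L1-HaloTag on the y axis; 1 point per pair, 203 pairs, low values are high scores). The snRNA copies include the pairs of highest rank in both lists, RNU5E-6P and RNU5E-4P, and 5S pairs lie high on the y axis, with medians at 4.06% and 16.6%.

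Transcribed pseudogenes, which are annotated with transcripts of their own, were hit far more often per gene. Of 1265 such genes, 344 (27.2%, 24.8 to 29.7) had an RPL22 summit and 379 (29.96%, 27.4 to 32.6) an RPL22L1 summit, 258 of them in both lists. They are longer, with a median of 9008 bases against 659 for the plain type, and per megabase they held fewer summits, 36.9 and 56.2 against 55.9 and 70.5. FER1L4 and ZNF767P held the most RPL22 summits with 16 each, then EP400P1 with 14, LRP5L and SUZ12P1 with 13 each, SCAND2P with 12, and ABCA11P, ALOX12P2 and SEPTIN7P14 with 11 each. GUSBP11, PPP4R1L, RABGEF1P1 and RP9P tied at 10. ABCA11P led the RPL22L1 list with 38 summits, before ATP6AP1L with 24, SUZ12P1 with 23, ZNF767P with 22, ALOX12P2 and ANKRD19P with 21 each, GUSBP11, MRPS31P5 and PPP4R1L with 19 each and CCNYL2 with 18. SUZ12, the Polycomb gene from which SUZ12P1 was copied, held 14 and 29.

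With the RPL22L1 list reduced to 154000 peaks, 60 pseudogenes had 10 or more summits over both lists. The log2 ratio of RPL22L1 to RPL22 summits, each plus 1, had a median of 0 among them and of 0 among all 7933 genes compared. It was above 1 for 7 of the 60, where 6.84% of all genes were, and below −1 for 5, where 8.60% were. The 7 were COX6B1P5, ATP6AP1L, DPY19L1P1, EBLN3P, LOC101929308, ADCY10P1 and CCDC162P. COX6B1P5 had 3 RPL22 and 10 RPL22L1 summits, a log2 ratio of 1.46, and ATP6AP1L had 5 and 14, a log2 ratio of 1.32. The 5 in the other direction were SCAND2P, CROCCP2, RPL32P3, LOC102723999 and FER1L4. SCAND2P had 12 RPL22 and 2 RPL22L1 summits, a log2 ratio of −2.12, and FER1L4 had 16 and 7, a log2 ratio of −1.09. Reducing a list by score depends on the score of that library, so these ratios are a description.

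**Figure D5:**
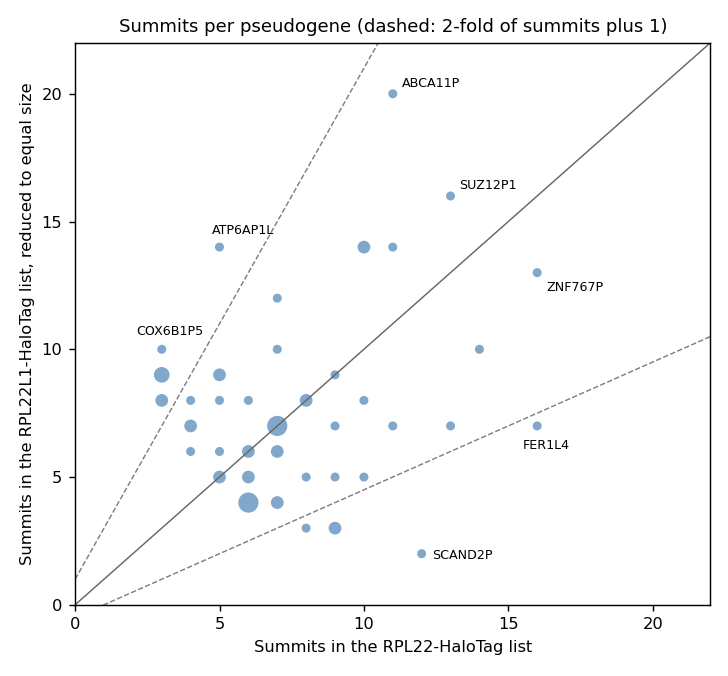
Summits per pseudogene in the RPL22-HaloTag list (x axis) and in the RPL22L1-HaloTag list reduced to the same length (y axis) for the 60 pseudogenes with 10 or more summits over both; larger points stand for several genes at 1 position. The solid line marks equal numbers and the dashed lines a 2-fold difference of the numbers plus 1, beyond which 7 and 5 genes lie.

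Many pseudogene peaks lay inside a longer gene of another type, the host. This was so for 980 RPL22 peaks (39.4%, 37.4 to 41.3) and 1374 RPL22L1 peaks (40.5%, 38.8 to 42.2), judged by the summit alone. Of annotated pseudogenes, 41.8% are nested, meaning that the whole pseudogene lies within a gene of another type. The shares of peaks and of pseudogenes rest on different rules, since a pseudogene that overlaps its host only in part is not nested. The host was protein-coding for 790 (31.7%) and 1101 (32.4%) of the peaks. Nested pseudogenes had a summit in 10.1% (9.41 to 10.8) and 12.5% (11.8 to 13.3) of cases. All others, called outside here, had one in 9.0% (8.45 to 9.58) and 9.91% (9.33 to 10.5). For the plain pseudogene type alone these shares were 9.96% and 12.4% nested against 6.76% and 7.48% outside. For snRNA copies the values were 5.97% and 10.1% nested against 5.50% and 9.31% outside, for RPL copies 8.24% and 12% against 8.07% and 9.27%, and for RPS copies 11.2% and 14.1% against 11% and 9.89%. Whether summits of nested copies came from host introns was not tested, since strand and exons are not given.

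The hosts with most RPL22 pseudogene peaks were the readthrough locus SUGT1P4-STRA6LP-CCDC180 with 9 peaks, the calcium channel gene CACNA1H with 8 in LOC102723999, ZNF721 with 8 in ABCA11P, the immunoglobulin locus IGL with 7 in BMS1P20, and, with 6 each, the protease gene ADAM10 (HMGB1P51 and HSP90AB4P), CA5BP1-CA5B (CA5BP1) and ZNF107 (BNIP3P11). In the RPL22L1 list ZNF721 held 34 peaks in ABCA11P, and POLN, which codes for a DNA polymerase, held 14 in COX6B1P5 and LOC100419959. LOC105379051 held 13 in ST13P12 and LOC107985251 13 in C4BPAP1 and C4BPAP2. GXYLT1, HAUS3, IGL and TPTEP2-CSNK1E held 12 each. COX6B1P5 lies within both POLN and HAUS3, so its peaks count under each.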

How the data were processed

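GoldCLIP-seq peaks were read from 2 deposited lists, 1 library each for RPL22-HaloTag and RPL22L1-HaloTag, grouped by the genotype label. Per the submitters' processing notes, cutadapt 4.8, STAR 2.7.10a, UMI-tools 1.1.5, MACS3 3.0.0a6 and the build hg38 were used; roles, settings, the control and the handling of reads with several matches are not given in the sources used here. Each deposited peak carries a score set by the authors, a whole number of 13 or more, used only within a list. The deposited summit offset is a position in bases. Depth is unknown.

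Coordinates are 1-based GRCh38. Summits were assigned to the shortest of 59716 RefSeq genes (GRCh38.p14) on chromosomes, with Python 3.11.15, pandas 2.3.3, numpy 2.4.6 and scipy 1.17.1. Families came from the symbol. Overlap was tested on 5000 simulated peaks, and gene assignment on 400 peaks of the RPL22 list against a direct search, with 0 errors in both. The 17 RPL22 and 37 RPL22L1 peaks in snRNA pseudogenes scoring 1000 or more were shifted by 1000 bases, and none then lay in one. These pseudogenes have a median length of 106 bases, so a shift of this size leaves them almost by construction. It therefore does not test the build. No sequence of the pseudogenes was used here.

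Named pseudogenes were, in each list, the 10 with the highest scores and the 10 with most summits, the 10 best-ranked overlapping shaped pairs, all RPL22 copies with a summit, per family the 3 highest-scoring members and the 3 parents with most copies hit, and the 5 hosts with most peaks. Further U1, U2, U4, 7SK, Y, 5S and 5.8S RNA copies and the genes past a 2-fold ratio were named after their values were seen. TSTD3, PLEKHA8P1 and the parents NPM1, GAPDH and KRT8 also fall outside the stated rules. Members and lists were chosen with earlier results of these data known. The alternatives were score limits, equal list sizes, every pseudogene that holds the summit, flat peaks left out, a 50% reciprocal overlap, at least 2 summits, and small RNA copies left out.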

Additional observations from a re-analysis of the deposited data

How the results depend on the processing

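Depth is unknown, each protein has 1 library, the library with the HaloTag alone was not analysed here, and copies of one family may share reads, so these values describe 2 peak lists. No paired analysis was possible because each group has 1 library. The share of RPL22 and RPL22L1 peaks in pseudogenes was 1.75% and 1.44% with every pseudogene that holds the summit, 1.51% and 1.45% without flat peaks, and 1.49% and 1.23% without snRNA, 7SK, 7SL and Y RNA copies, an alternative chosen after seeing the data. The RPL22L1 share was 1.43% with lists of equal size and 1.45% above its own median score. The shared share of RPL22 and RPL22L1 pseudogene peaks was 24.8% and 24.9% without flat peaks, 11.2% and 8.28% with a 50% reciprocal overlap, 12.7% and 14.5% with equal lists, and 12.9% and 9.54% without the small RNA copies. Above its median score the RPL22L1 value was 14.0%. The order of the 2 lists thus turned with equal lists, which by construction shortens the RPL22L1 list and drops its lowest-scoring peaks. The flat share was 49.2% and 65.5% above the median score and 70.5% and 80.1% without small RNA copies, and for RPL22L1 68.2% with equal lists. The share of peaks inside a host was 44.1% and 44.7% with every holding pseudogene and 42.7% and 47.9% without flat peaks. For RPL22L1 it was 38.7% without small RNA copies. Pseudogenes with a summit numbered 622, 646 and 273 (RPL22, RPL22L1, both) without flat peaks, and 380, 464 and 220 with at least 2 summits. Above the median score 1222 remained in the RPL22L1 list and 475 in both. The other 23 recomputed values of these results stayed within the interval of the reported value, or within 1.5 times a reported count. Of the peak counts per family, 48 stayed within 1.5 times and 14 fell below it. The cause was not tested.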

Other observations

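Pseudogenes of glycolytic enzymes were hit in 23 of 112 cases (20.5%, 13.5 to 29.2) in the RPL22 list and in 14 (12.5%, 7.01 to 20.1) in the RPL22L1 list, with 6 in both. Of their peaks 29 of 32 and 16 of 19 were flat. GAPDH had 12 and 6 of its 65 copies hit. Ferritin copies, of genes that code for iron storage, were hit in 8 and 3 of 47 cases. Copies of cytoskeletal genes were hit in 37 (13.6%, 9.76 to 18.3) and 30 (11%, 7.57 to 15.4) of 272 cases. Over all pseudogenes the shares were 9.46% and 11%, so the RPL22L1 share of cytoskeletal copies was close to that of all pseudogenes. KRT8, an epithelial keratin, had 11 and 8 of 52 copies hit. Chaperone and cyclophilin copies were hit in 33 (17.2%) and 41 (21.4%) of 192 cases and copies of hnRNP and SR proteins in 24 (16.9%) and 33 (23.2%) of 142. These shares were not adjusted for length. Median lengths were 1239.5 bases for glycolytic, 1397 for cytoskeletal and 1220 for hnRNP and SR copies, against 716 for all pseudogenes. Ferritin copies had a median of 784 bases, and chaperone and cyclophilin copies one of 740.5.

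A few copies of other small RNAs carried shaped peaks. SNORD3P4, a copy of a snoRNA, scored 1232 and 1546 in overlapping peaks. TRK-CTT14-1, annotated as a tRNA pseudogene, scored 552 and 1329. VTRNA3-1P, a vault RNA copy, had an RPL22L1 peak of 509 and no RPL22 peak. These copies were picked after their values were seen.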
